A study of Mus musculus with 8 samples.

Results

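Ras activators and Ras GTPase-activating proteins were followed in E2a-/- mouse T cell leukemia lines with and without deletion of Lef1. The set was chosen by gene name and held the exchange factors Rasgrp1, Rasgrp2, Rasgrp3, Rasgrp4, Sos1 and Sos2, which load Ras or its relatives with GTP, and the GTPase-activating proteins Rasa1 and Nf1, which return Ras to its GDP-bound form. Every probe set whose platform symbol was one of these 8 genes was taken, which gave 23 of the 45037 probe sets on the array. Rasgrp1 and Rasgrp2 had 4 probe sets each, Sos1 had 5, Rasa1 and Nf1 had 3 each, Rasgrp3 had 2, and Rasgrp4 and Sos2 had 1 each. All of them were kept, with no filter on intensity.

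The arrays measured RNA from GFP+ cells sorted 72 hours after infection with MigR1-Cre, a retrovirus that makes Cre and GFP, or with MigR1, which makes GFP alone. There were 4 groups of 2 arrays each: Lef1F/F MigR1-Cre, Lef1F/F MigR1, E2a-/- MigR1-Cre and E2a-/- MigR1. Lef1F/F stands here for the E2a-/- Lef1F/F line, which carries loxP sites around the part of Lef1 that encodes the DNA binding domain, and E2a-/- stands for a line that lacks E2a and has no such alleles. Both are on the FVB/NJ strain and were grown out of thymic cells of moribund mice. Because E2a was missing in all 4 groups, no comparison concerns its loss, and because each genotype was 1 line, genotype and line cannot be told apart. The labels do not say that the arrays of a group came from separate cultures or infections, so each p-value is set against array-to-array spread alone, which may be technical.

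Ras is a small GTPase that switches on the Raf, MEK and ERK kinases when it holds GTP. In T cells the antigen receptor reaches Ras by 2 routes. Phospholipase C gamma makes diacylglycerol, a membrane lipid that draws Rasgrp1 to the membrane, and the adaptor Grb2 carries Sos1 or Sos2 to the phosphorylated scaffold Lat. Rasgrp1 is needed for positive selection of thymocytes, and mice that express it in excess in T cells develop thymic lymphomas.

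Values are linear RMA intensities, in which the median probe set lay between 88.9 and 91.0 units on every array. The table holds no detection calls, so an intensity below that median is given as measured and is not called absent. Lef1 was read as a check of the vector labels in the Lef1F/F line. Probe set 1454734_at read 1903 and 1677.8 units in Lef1F/F MigR1-Cre arrays and 6918 and 6126 units in Lef1F/F MigR1 arrays, while E2a-/- MigR1-Cre arrays had 3007.6 and 3416.4 units and E2a-/- MigR1 arrays 3288 and 3337.4 units. The other Lef1 probe set, 1421299_a_at, read 235.8 and 236.7 units in Lef1F/F MigR1-Cre arrays and 1485.3 and 1262.2 units in Lef1F/F MigR1 arrays. In the E2a-/- line it read 604.9 and 628.0 units with MigR1-Cre and 610.4 and 753.4 units with MigR1. Without loxP sites in Lef1, the E2a-/- arrays carry no such check of their vector labels, on which their comparison rests, and a field of the labels names the other vector for the E2a-/- MigR1-Cre and Lef1F/F MigR1 arrays. Whether the probes lie inside the deleted part was not examined. Same-numbered Lef1F/F arrays, numbered in record order, were more alike across the vectors (Pearson r = 0.9975 for both numbers, over all probe sets) than the 2 arrays of one vector (0.9943 with MigR1-Cre and 0.9945 with MigR1). Of 9 measured T lineage markers, 8 exceeded 150 units on at least 1 array, the exception being Cd5. All 5 measured B lineage, 6 myeloid, 6 mast cell and 5 platelet markers stayed under 150 units. In bulk RNA, fewer cells of a type and less RNA per cell cannot be told apart.

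Upstream sequence is shown for Rasgrp1, the member that changed after MigR1-Cre, and for Rasa1, the member whose window held a word that LEF1 and the related TCF factors are known to bind. Both are the 250 bases before the RefSeq start of the gene in GRCm38.p6, read along the gene's strand. Rasgrp1 lies at chr2:117342878-117343127 and Rasa1 at chr13:85289487-85289736, both on the minus strand. Capitals mark an E-box (CANNTG), the word bound by E proteins such as those encoded by E2a, in Rasgrp1 and a TCF/LEF word in Rasa1.
Rasgrp1: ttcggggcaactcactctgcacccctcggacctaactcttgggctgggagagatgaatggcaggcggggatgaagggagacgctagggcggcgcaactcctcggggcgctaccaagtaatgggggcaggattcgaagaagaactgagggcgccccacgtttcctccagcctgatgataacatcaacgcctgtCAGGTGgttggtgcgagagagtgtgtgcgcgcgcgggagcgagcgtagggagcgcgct
Rasa1: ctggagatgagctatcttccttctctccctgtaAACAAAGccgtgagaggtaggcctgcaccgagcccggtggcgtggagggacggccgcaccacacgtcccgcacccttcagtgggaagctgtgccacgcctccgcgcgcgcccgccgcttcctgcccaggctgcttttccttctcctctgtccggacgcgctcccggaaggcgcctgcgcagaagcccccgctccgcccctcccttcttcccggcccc
The TCF/LEF word searched on both strands was CTTTGNN with A or T at each N. It occurred in 1 of 9 windows of 7 members, that of Rasa1, and in 14.8% of 32851 windows of all genes. The E-box occurred in 4 of the 9 windows, those of Rasgrp1, Sos1 and both of Rasgrp3, and in 66.2% of all windows. A match in letters does not show binding, and these windows do not cover distant enhancers.

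Rasgrp1 was the member that fell with MigR1-Cre among the Lef1F/F arrays. Its brightest probe set, 1434295_at, read 661.9 and 710.7 units in Lef1F/F MigR1-Cre arrays, against 1185.6 and 1186.8 units in Lef1F/F MigR1 arrays. The groups did not overlap, and the fall was 1.73-fold (log2 difference -0.79 ± 0.065, SE, 95% interval -0.94 to -0.64, limma adjusted p = 0.00531), which ranked 16 by p among all probe sets. Rasgrp1 was already known from the study's work on these same arrays, so the call is not independent evidence of its direction. For the E2a-/- line, where MigR1-Cre has no loxP sites in Lef1 to act on, the same probe set read 467.2 and 442.1 units in MigR1-Cre arrays and 483.0 and 461.1 units in MigR1 arrays. These groups overlapped, with a log2 difference of -0.054 ± 0.065 and a 95% interval from -0.20 to 0.095. The difference between the effects in the lines was -0.74 ± 0.091 on the log2 scale (95% interval -0.95 to -0.53) and did not pass the adjustment over all probe sets (adjusted p = 0.0991). With the array number as a block within each line, a pairing that the labels do not state, that difference passed (adjusted p = 0.00269). Each of the 8 fits that left out 1 array kept the call in the Lef1F/F line, with adjusted p between 0.0254 and 0.0427, but a fit of the 4 Lef1F/F arrays alone, with fewer arrays to estimate the spread, did not (adjusted p = 0.27).

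The other 3 Rasgrp1 probe sets did not pass in that comparison. Probe set 1431749_a_at read 92.3 and 83.2 units in Lef1F/F MigR1-Cre arrays, against 118.5 and 96.2 units in Lef1F/F MigR1 arrays (log2 difference -0.29 ± 0.10, adjusted p = 0.905). Probe set 1421176_at read 74.5 and 71.4 units with MigR1-Cre and 75.3 and 83.6 units with MigR1. Probe set 1450143_at read 65.2 and 91.3 units with MigR1-Cre and 72.3 and 124.5 units with MigR1, and array 2 was the higher of the pair with both vectors. These 3 had means over all arrays of 90.8, 74.8 and 75.6 units, near or below the array medians, against 699.8 units for 1434295_at. Averaging the 4 probe sets, in which each counts equally, gave a log2 difference of -0.37, which did not pass (adjusted p = 0.08). The call for Rasgrp1 thus rests on 1434295_at.

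**Figure D1:**
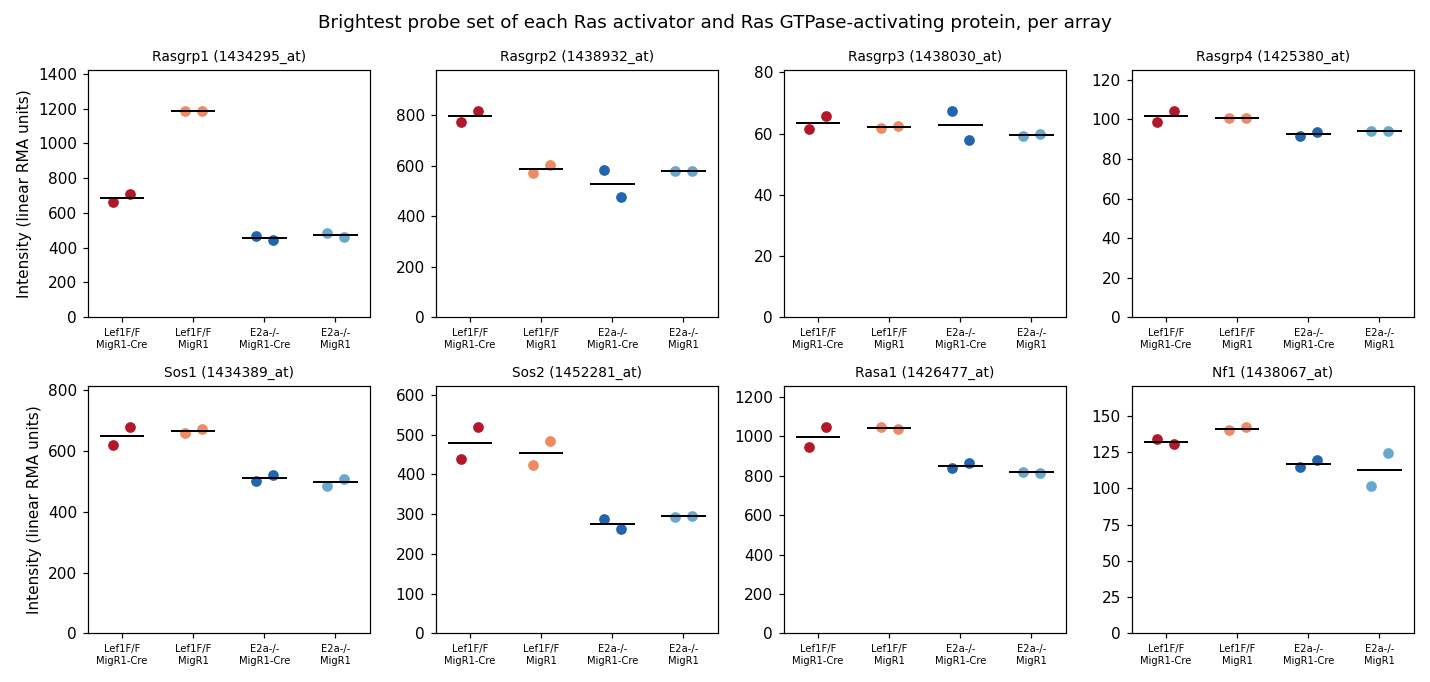
Intensity in linear RMA units (y axis) of the brightest probe set of each of the 8 genes in the 4 groups (x axis), with 1 point for each array and a bar for the mean of 2 arrays. Rasgrp1 lies at 661.9 and 710.7 units in Lef1F/F MigR1-Cre arrays, below both Lef1F/F MigR1 arrays and above all 4 E2a-/- arrays.

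Rasgrp2 encodes an exchange factor that acts mainly on the Ras relative Rap1 and is best known from platelets. Its brightest probe set, 1438932_at, read 773.4 and 817.2 units in Lef1F/F MigR1-Cre arrays, against 572.9 and 603.5 units in Lef1F/F MigR1 arrays. A second probe set of high intensity, 1438933_x_at, read 714.4 and 777.8 units with MigR1-Cre and 564.9 and 576.4 units with MigR1. The groups did not overlap at either probe set, but neither passed the adjustment (log2 difference 0.44 ± 0.093, adjusted p = 0.285, and 0.39 ± 0.071, adjusted p = 0.184). Among E2a-/- arrays, 1438932_at read 581.2 and 476.5 units with MigR1-Cre and 578.5 and 577.3 units with MigR1, groups that overlapped. There 1438933_x_at read 517.1 and 470.8 units with MigR1-Cre and 511.3 and 525.4 units with MigR1. The differences between the effects in the lines, 0.57 ± 0.13 for 1438932_at and 0.46 ± 0.10 for 1438933_x_at on the log2 scale, did not pass either (adjusted p = 0.89 and 0.784). With the array number as a block within each line, a pairing that the labels do not state, both passed in the Lef1F/F line (adjusted p = 0.0122 and 0.0162). With that block the difference between the effects passed at 1438932_at (adjusted p = 0.047) and not at 1438933_x_at. The suffix _x marks probes that can match other transcripts, and the probes of these sets may overlap, which was not examined.

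The other Rasgrp2 probe sets had wider spreads. Probe set 1417804_at read 330.5 and 261.0 units in Lef1F/F MigR1-Cre arrays and 286.8 and 264.7 units in Lef1F/F MigR1 arrays, which overlapped. Probe set 1442264_at read 120.2 and 96.9 units with MigR1-Cre and 96.5 and 88.0 units with MigR1, which were barely apart (log2 difference 0.23 ± 0.10, adjusted p = 1). The 5 platelet and megakaryocyte markers measured summed to between 468 and 470 units in Lef1F/F MigR1-Cre arrays, against 433 to 451 units in Lef1F/F MigR1 arrays. In the E2a-/- line these markers summed to between 457 and 470 units with MigR1-Cre and 449 and 453 units with MigR1. None of them exceeded 135.2 units on any array, and their part in the Rasgrp2 values was not tested.

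**Figure D2:**
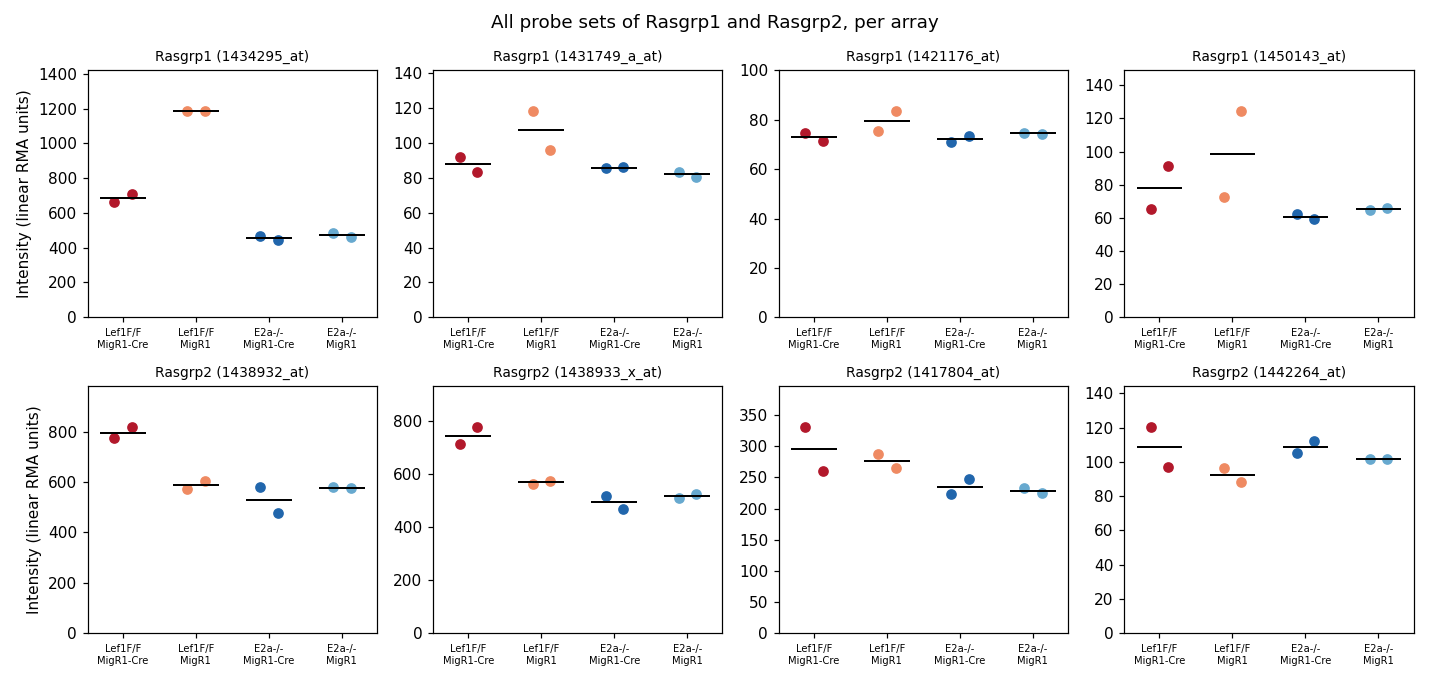
Intensity in linear RMA units (y axis) of the 4 probe sets of Rasgrp1 (upper row) and the 4 of Rasgrp2 (lower row) in the 4 groups (x axis), with a point for each array and a bar for the mean of 2 arrays. In the fit without a block, the MigR1-Cre difference in the Lef1F/F line passed at Rasgrp1 1434295_at alone, and no Rasgrp2 probe set passed.

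Across all members, 1 of 23 probe sets (4.35%) passed an adjusted p of 0.05 in Lef1F/F arrays with MigR1-Cre set against MigR1, where 0.167% of all probe sets passed, 0.127% of them as lower. The median log2 difference was -0.009 over the members and 0.002 over all probe sets. Groups did not overlap for 3 members that were higher, all of them Rasgrp2, beside 15.4% of all probe sets. They did not overlap for 4 that were lower, made up of 3 Rasgrp1 probe sets and Nf1 1438067_at, beside 13.7% of all probe sets. These shares are near the background. For the E2a-/- line, 0 of 23 members passed by limma and 0 had an unadjusted p under 0.05, and 0% of all probe sets passed. There the groups did not overlap for 3 members that were higher and 5 that were lower, beside 16.2% and 15.2% of all probe sets. For the difference between the effects 0 of 23 passed by limma, 4 had an unadjusted p under 0.05, and 0.02% of all probe sets passed.

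No probe set of Sos1, Sos2, Rasa1 or Nf1 passed for MigR1-Cre in either line. Among Lef1F/F arrays Sos1 1434389_at read 618.7 and 678.2 units with MigR1-Cre and 658.0 and 672.3 units with MigR1 (95% interval of the log2 difference -0.19 to 0.12). Sos2 1452281_at read 439.0 and 518.5 units with MigR1-Cre and 424.2 and 484.6 units with MigR1 (95% interval -0.16 to 0.30). Rasa1 1426477_at read 945.5 and 1045.0 units with MigR1-Cre and 1046.3 and 1036.3 units with MigR1 (95% interval -0.22 to 0.084). All 3 pairs of groups overlapped, and their intervals exclude a change as large as that of Rasgrp1. Nf1 1438067_at read 134.1 and 130.6 units with MigR1-Cre and 140.3 and 142.3 units with MigR1 (log2 difference -0.094 ± 0.091), a gap within the error.

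Rasgrp3, the family member best known from B cells, and Rasgrp4, best known from mast cells, gave no call in any comparison. The 2 Rasgrp3 probe sets ranged between 56.2 and 67.4 units over the 8 arrays, below the median of every array. Rasgrp4 1425380_at read 98.8 and 104.3 units in Lef1F/F MigR1-Cre arrays and 100.5 and 100.8 units in Lef1F/F MigR1 arrays. Among E2a-/- arrays it read 91.7 and 93.7 units with MigR1-Cre and 94.4 and 94.1 units with MigR1. The measured B lineage markers did not exceed 104.1 units and the mast cell markers did not exceed 97.4 units on any array.

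**Figure D3:**
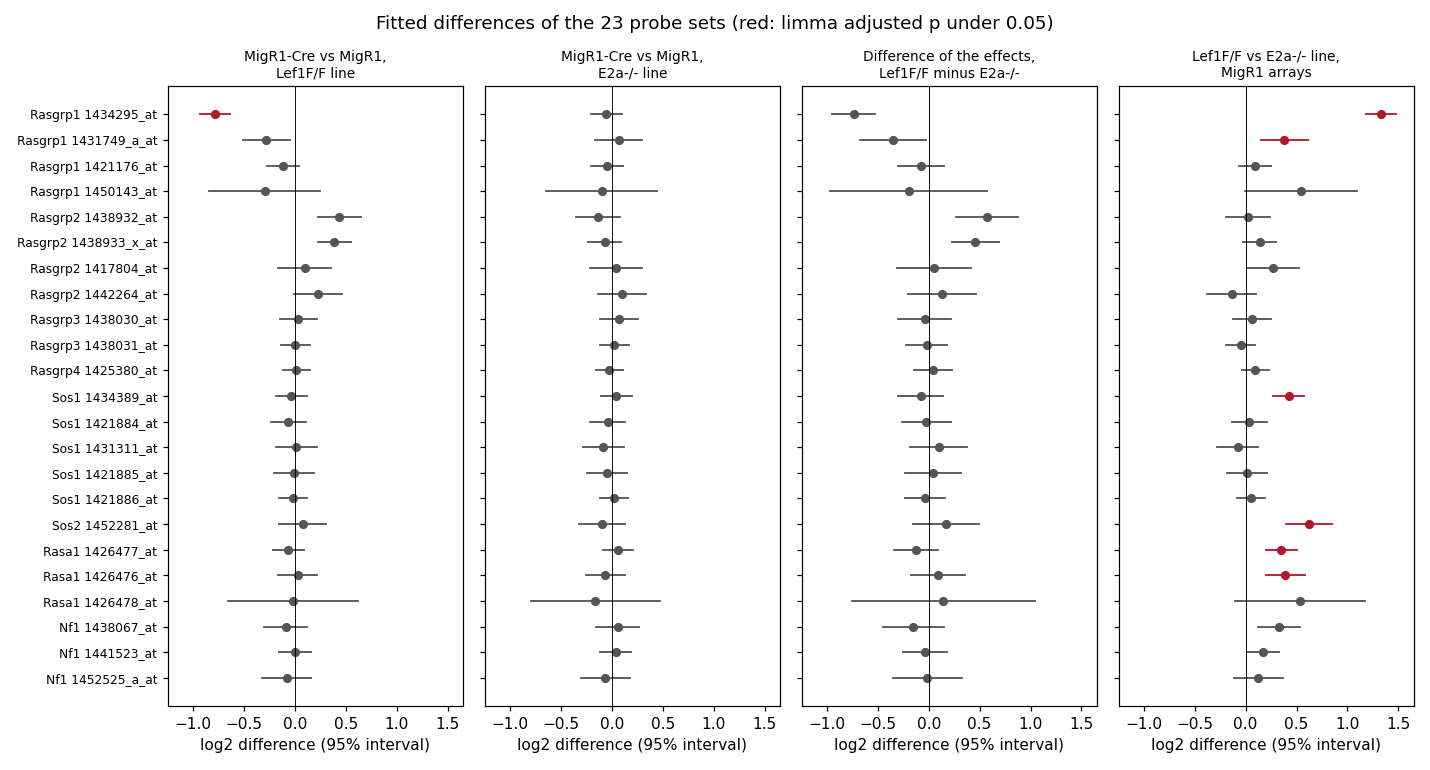
Log2 differences (x axis) with 95% intervals for the 23 probe sets (y axis) in the 4 comparisons, with red marking an adjusted p under 0.05. The red points are Rasgrp1 1434295_at at -0.79 in the first panel and 6 probe sets, all above 0, in the comparison of the lines.

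The lines were then compared in MigR1 arrays, where Lef1 was not deleted. Of the activator and GTPase-activating protein probe sets, 6 were higher in the Lef1F/F line than in the E2a-/- line and 0 were lower. The 6 make 26.1% of the 23, where 10.7% of all probe sets passed, 6.06% as higher and 4.67% as lower. Among probe sets above the median intensity, which are called more often, 18.9% passed and 10.6% passed as higher. At the brightest probe set 4 of 8 genes passed, Rasgrp1, Sos1, Sos2 and Rasa1, where 14.6% of all genes passed. The median log2 difference was 0.139 over the members and -0.009 over all probe sets. The 2 groups did not overlap for 16 members that were higher and 1 that was lower, beside 22.9% and 27.3% of all probe sets.

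Rasgrp1 had the widest gap between the lines among the members that passed. Against the 1185.6 and 1186.8 units of Lef1F/F MigR1 arrays given above, E2a-/- MigR1 arrays had 483.0 and 461.1 units, so Rasgrp1 1434295_at was 2.51-fold higher in the Lef1F/F line (log2 difference 1.33 ± 0.065, adjusted p = 7.9e-06). The mean of the 4 Rasgrp1 probe sets gave a log2 difference of 0.59 (adjusted p = 0.0004). In MigR1-Cre arrays the gap at 1434295_at was 1.51-fold (0.59 ± 0.065, adjusted p = 0.000729). The order of its levels was thus Lef1F/F MigR1, Lef1F/F MigR1-Cre and then both E2a-/- groups, which did not differ beyond their spread. Probe set 1431749_a_at read 118.5 and 96.2 units in Lef1F/F MigR1 arrays and 83.6 and 80.6 units in E2a-/- MigR1 arrays, at the edge of the threshold (adjusted p = 0.0499). That call was lost without E2a-/- MigR1 array 1 or 2, E2a-/- MigR1-Cre array 1 or 2, or Lef1F/F MigR1 array 1 (adjusted p = 0.188, 0.253, 0.0957, 0.0957 and 0.149), and its log2 difference in MigR1-Cre arrays was 0.028.

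The Sos genes were also higher in the Lef1F/F line. Sos1 1434389_at read 658.0 and 672.3 units in Lef1F/F MigR1 arrays, against 485.6 and 507.5 units in E2a-/- MigR1 arrays (1.34-fold, log2 difference 0.42 ± 0.067, adjusted p = 0.00513). In MigR1-Cre arrays the Sos1 difference was 0.34 ± 0.067 (adjusted p = 0.0131). The other 4 Sos1 probe sets had means over all arrays between 52.4 and 161.2 units, against 580.4 units for 1434389_at. They differed by between -0.079 and 0.051 on the log2 scale and did not pass. The mean of all 5, in which each counts equally, did not pass either (0.089, adjusted p = 0.316). Sos2 1452281_at read 424.2 and 484.6 units in Lef1F/F MigR1 arrays, against 293.4 and 295.0 units in E2a-/- MigR1 arrays (1.54-fold, 0.62 ± 0.099, adjusted p = 0.00518). The Sos2 gap was 0.79 ± 0.099 in MigR1-Cre arrays (adjusted p = 0.00147). Without E2a-/- MigR1 array 1 neither gene passed in MigR1 arrays (adjusted p = 0.0585 for Sos1 and 0.0534 for Sos2), and without E2a-/- MigR1 array 2 the adjusted p for Sos2 was 0.0503.

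Of the GTPase-activating proteins, Rasa1, which binds phosphorylated tyrosines through its SH2 domains, passed at 2 of 3 probe sets. Rasa1 1426477_at read 1046.3 and 1036.3 units in Lef1F/F MigR1 arrays, against 820.3 and 814.7 units in E2a-/- MigR1 arrays (1.27-fold, 0.35 ± 0.066, adjusted p = 0.0117). Rasa1 1426476_at read 932.5 and 1010.4 units in Lef1F/F MigR1 arrays, against 770.8 and 711.7 units in E2a-/- MigR1 arrays (1.31-fold, 0.39 ± 0.082, adjusted p = 0.0194). In MigR1-Cre arrays 1426476_at passed (0.48 ± 0.082, adjusted p = 0.00695) and 1426477_at did not (0.22 ± 0.066, adjusted p = 0.0669). Both calls in MigR1 arrays were lost without E2a-/- MigR1 array 1 (adjusted p = 0.0836 for 1426477_at and 0.0663 for 1426476_at), without E2a-/- MigR1 array 2 (0.0883 and 0.155) or without Lef1F/F MigR1 array 2 (0.0519 and 0.112). The remaining probe set, 1426478_at, read 164.0 and 260.3 units in Lef1F/F MigR1 arrays and 137.8 and 147.6 units in E2a-/- MigR1 arrays. Its spread within the Lef1F/F line was wide, and it did not pass (0.53 ± 0.28, adjusted p = 0.325).

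Nf1, which encodes the GTPase-activating protein neurofibromin, did not pass in MigR1 arrays. Nf1 1438067_at read 140.3 and 142.3 units in Lef1F/F MigR1 arrays and 102.0 and 124.2 units in E2a-/- MigR1 arrays, groups that did not overlap (log2 difference 0.33 ± 0.091, adjusted p = 0.0595). Without E2a-/- MigR1 array 2, the higher of its pair, the difference was 0.47 and passed (adjusted p = 0.0166). The other Nf1 probe sets had log2 differences of 0.17 and 0.13 and did not pass. Rasgrp2 showed another pattern: in MigR1 arrays the lines differed by 0.025 ± 0.093 at 1438932_at and 0.14 ± 0.071 at 1438933_x_at, neither of which passed. In MigR1-Cre arrays both probe sets were 1.51-fold higher in the Lef1F/F line (log2 difference 0.60 for each, adjusted p = 0.00471 and 0.0012). Among MigR1-Cre arrays 6 members passed, all higher, where 12% of all probe sets passed and 5.97% passed as higher. With the mean over both vectors 9 members passed, among them Nf1 1438067_at (0.25, adjusted p = 0.026) and Rasgrp2 1438932_at, 1438933_x_at and 1417804_at (adjusted p = 0.0121, 0.00136 and 0.0327), where 20.5% of all probe sets passed. The test of whether the gap between the lines depends on the vector is the difference between the effects given above. It did not pass for Rasgrp2 in the fit without the block.

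Some stromal and T lineage markers also differed between the lines, and no measured B lineage, myeloid, mast cell or platelet marker passed. The 6 stromal markers summed to between 755 and 757 units in Lef1F/F MigR1-Cre arrays, 826 and 837 units in Lef1F/F MigR1 arrays, 4754 and 4824 units in E2a-/- MigR1-Cre arrays and 4579 and 4629 units in E2a-/- MigR1 arrays. Nearly all of this gap was the collagen gene Col1a2, which had 310.6 and 293.5 units in Lef1F/F MigR1 arrays, against 4131.1 and 4189.2 units in E2a-/- MigR1 arrays. Pdgfrb was higher in the Lef1F/F line (log2 difference 0.72), and the other 4, Col1a1, Col3a1, Dcn and Sparc, stayed under 150 units. Among T lineage markers, Cd2, Cd28, Cd3g and Cd3e were higher in the Lef1F/F line and Ptprc was lower. For MigR1-Cre in Lef1F/F arrays 0 of the 9 measured T lineage markers passed by limma, 3 had an unadjusted p under 0.05, and the smallest adjusted p was that of Cd2 (log2 difference -0.46 ± 0.069, adjusted p = 0.0816). The summed T lineage markers ranged between 30021 and 34573 units in Lef1F/F MigR1-Cre arrays and 28509 and 32692 units in Lef1F/F MigR1 arrays. Among E2a-/- arrays they ranged between 28032 and 28087 units with MigR1-Cre and 28139 and 28571 units with MigR1. The part of these markers in the member differences was not tested.

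The rest of the Ras pathway was read from 7 lists with 64 genes, of which 56 were measured under a gene name and the others were not analysed here. Plcg1 stands in both the membrane adaptor and the diacylglycerol list and was counted once in these totals. With each gene read from its brightest probe set, 0 of 56 passed by limma for MigR1-Cre in the Lef1F/F line, where 0.286% of all genes passed, and 8 had an unadjusted p under 0.05. For the E2a-/- line and the difference between the effects, 0 of 56 passed as well, where 0% and 0.033% of all genes passed, and 0 and 4 had an unadjusted p under 0.05. The smallest p-values in the Lef1F/F line belonged to Cblb, a ubiquitin ligase that restrains T cell receptor signaling, and Dgka, a kinase that converts diacylglycerol to phosphatidic acid. Cblb read 513.4 and 585.9 units in Lef1F/F MigR1-Cre arrays, against 739.9 and 720.5 units in Lef1F/F MigR1 arrays (log2 difference -0.41 ± 0.084, adjusted p = 0.24). Dgka read 196.1 and 173.8 units with MigR1-Cre, against 262.3 and 230.6 units with MigR1 (-0.41 ± 0.089, adjusted p = 0.287). Neither pair of groups overlapped, but neither gene passed. The other unadjusted p-values under 0.05 came with log2 differences of -0.23 for Prkch, -0.24 for Prkcq, -0.20 for Rit1 and -0.21 for Rras. Rasal1 and Cbl were higher with MigR1-Cre, by 0.26 and 0.19, and none of these genes passed.

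Between the lines in MigR1 arrays 16 of the 56 pathway genes were higher in the Lef1F/F line, 2 were lower and 38 did not pass. That is 32.1% of the measured pathway genes, beside 14.6% of all genes, with 8.71% higher and 5.88% lower. Among all probe sets above the median intensity, which are called more often, 18.9% passed and 10.6% passed as higher. The pathway genes were not matched for intensity. Their median log2 difference was 0.062, beside -0.005 over all genes. The lists were chosen with earlier results of these data known, so the counts describe these arrays.

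Genes that make, remove or sense diacylglycerol held the widest gaps, with 4 of 11 higher. The kinase Prkca read 602.0 and 596.4 units in Lef1F/F MigR1 arrays, against 276.6 and 262.1 units in E2a-/- MigR1 arrays (2.23-fold, log2 SE 0.077, adjusted p = 4.7e-05). Dgka read 262.3 and 230.6 units in Lef1F/F MigR1 arrays, against 114.9 and 108.5 units in E2a-/- MigR1 arrays (1.14 ± 0.089, adjusted p = 0.000119). Prkch and Prkcq, protein kinase C genes of T cells, were higher by 0.86 and 0.54 on the log2 scale. Among other exchange factors, 2 of 8 were higher, Rapgef2 (0.99 ± 0.10, adjusted p = 0.000478) and Rapgef6 (0.35), both of which act on Rap proteins.

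Among other Ras GTPase-activating proteins 3 of 7 were higher and 1 was lower. Rasa3, which acts on Ras and Rap, read 338.9 and 360.5 units in Lef1F/F MigR1 arrays, against 173.9 and 191.3 units in E2a-/- MigR1 arrays (0.94 ± 0.072, adjusted p = 0.000104). Rasal1 and Rasa2 were higher by 0.43 and 0.40 on the log2 scale. Dab2ip was lower, with 212.8 and 235.4 units in Lef1F/F MigR1 arrays, against 367.3 and 357.9 units in E2a-/- MigR1 arrays (-0.70 ± 0.088, adjusted p = 0.00161). The Ras exchange factors Rasgrp1, Sos1 and Sos2, given above, were also among the genes that were higher in the Lef1F/F line. They act on Ras in the way opposite to GTPase-activating proteins.

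Of the Nf1 and Ras partners 2 of 8 were higher. Spred2, whose product brings neurofibromin to the membrane, read 604.9 and 628.1 units in Lef1F/F MigR1 arrays, against 333.3 and 302.4 units in E2a-/- MigR1 arrays (0.96 ± 0.091, adjusted p = 0.000322), and Cblb was higher by 0.45 on the log2 scale. Membrane adaptors gave 3 of 11 higher, the receptor subunit Cd3e (0.32) and the adaptors Grb2 (0.34) and Grap (0.28). Among Ras GTPases 1 of 4 was higher, Rras (0.35). Among Raf and MEK kinases and scaffolds 1 of 8 was higher, Map2k1 (0.40), and 1 was lower, Araf (-0.33), which turned to 0.098 when all its probe sets were averaged.

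Among these calls, Rapgef2, Rasa3, Prkca, Prkch, Prkcq, Dgka, Dab2ip and Spred2 passed under every alternative run, and the smaller differences did not. Without E2a-/- MigR1 array 1 the calls for Rapgef6, Rasa2, Cblb, Cd3e, Grb2, Grap, Map2k1 and Araf were lost (adjusted p between 0.0574 for Cblb and 0.277 for Araf). Without E2a-/- MigR1 array 2 those for Rasal1, Rasa2, Cblb, Cd3e, Grb2, Grap, Rras, Map2k1 and Araf were lost (adjusted p between 0.0537 for Map2k1 and 0.214 for Grap). Without Lef1F/F MigR1 array 1 Rasa2, Grb2, Grap, Rras and Araf did not pass, and without Lef1F/F MigR1 array 2 Rapgef6, Cd3e, Grb2, Grap, Rras, Map2k1 and Araf did not (adjusted p between 0.0518 and 0.238 over both). Rapgef6, Grap and Araf were also lost without either E2a-/- MigR1-Cre array (adjusted p = 0.0553, 0.0712 and 0.086). Averaging the probe sets of a gene gave 0.062 for Cblb, 0.17 for Grb2 and 0.15 for Rapgef6 on the log2 scale, and none of these passed (adjusted p = 0.728, 0.182 and 0.081). In MigR1-Cre arrays the differences were 0.069 for Cblb, 0.08 for Rras and 0.18 for Grap, and none passed (adjusted p = 0.724, 0.656 and 0.139).

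**Figure D4:**
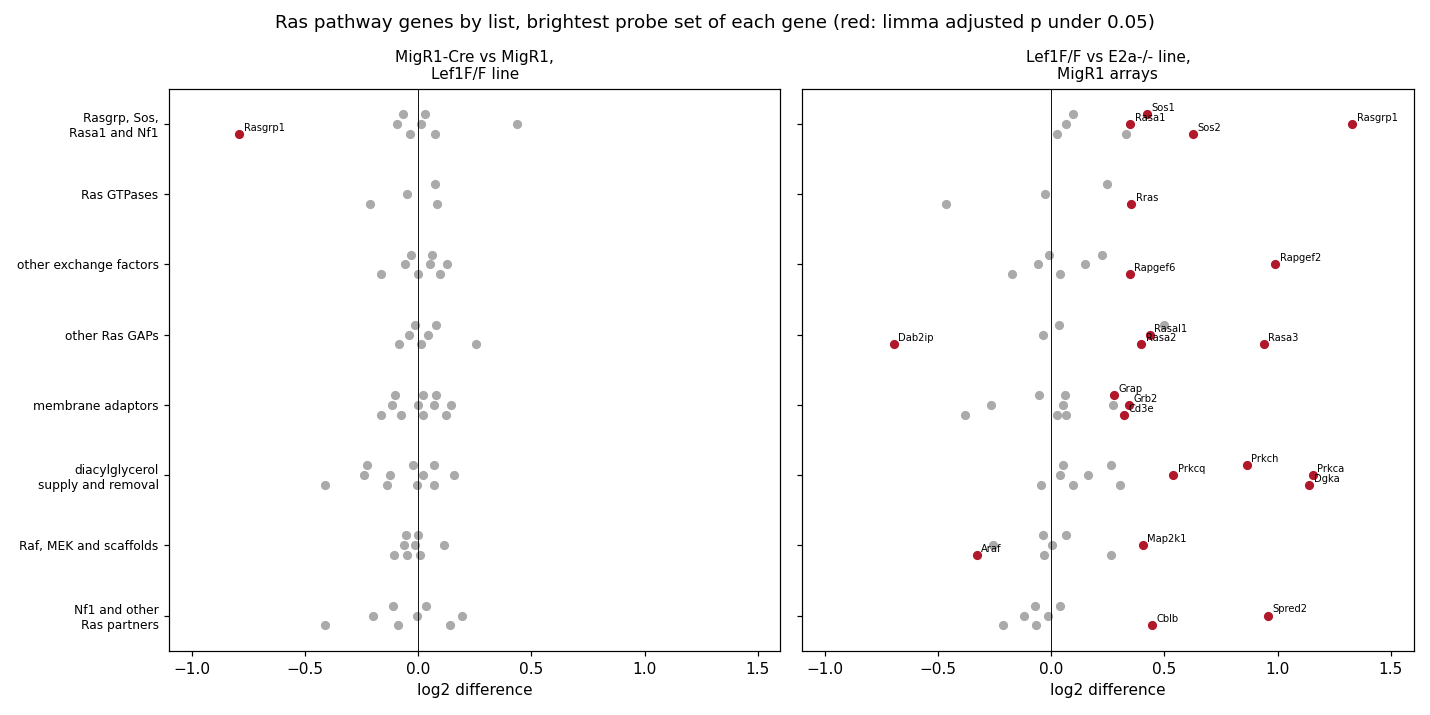
Log2 differences (x axis) of the 8 genes and of 7 Ras pathway lists (y axis), with 1 point a gene, from its brightest probe set, and red for an adjusted p under 0.05. With MigR1-Cre in Lef1F/F arrays (left) Rasgrp1 is the red point, and between the lines (right) 16 pathway genes are red above 0 and 2 below 0.

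The genes whose pattern over the 8 arrays was most like that of Rasgrp1 1434295_at were Cd53, Icos, Egr1, 2810459M11Rik and Cpm. Their Pearson correlations on the log2 scale were 0.9947, 0.9941, 0.9937, 0.9933 and 0.9921, the highest among 10776 genes whose mean over all 8 arrays lay above the median intensity. The 8 points are 4 groups of 2 arrays from 2 lines, so the values describe the order of the groups. Cd53 and Cpm lay below the array medians in all 4 E2a-/- arrays and entered through their Lef1F/F values, so the ranking is a description and no support for the pattern. Egr1, a gene induced by ERK signaling, read 150.1 and 164.1 units in Lef1F/F MigR1-Cre arrays and 266.6 and 239.2 units in Lef1F/F MigR1 arrays. In the E2a-/- line it read 112.4 and 116.0 units with MigR1-Cre and 116.5 and 114.9 units with MigR1. Icos, a T cell costimulatory receptor, read 148.9 and 143.8 units in Lef1F/F MigR1-Cre arrays and 214.8 and 217.8 units in Lef1F/F MigR1 arrays, and between 104.4 and 105.5 units in all 4 E2a-/- arrays. The other 3 had the same order of groups, with Lef1F/F MigR1 highest.

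**Figure D5:**
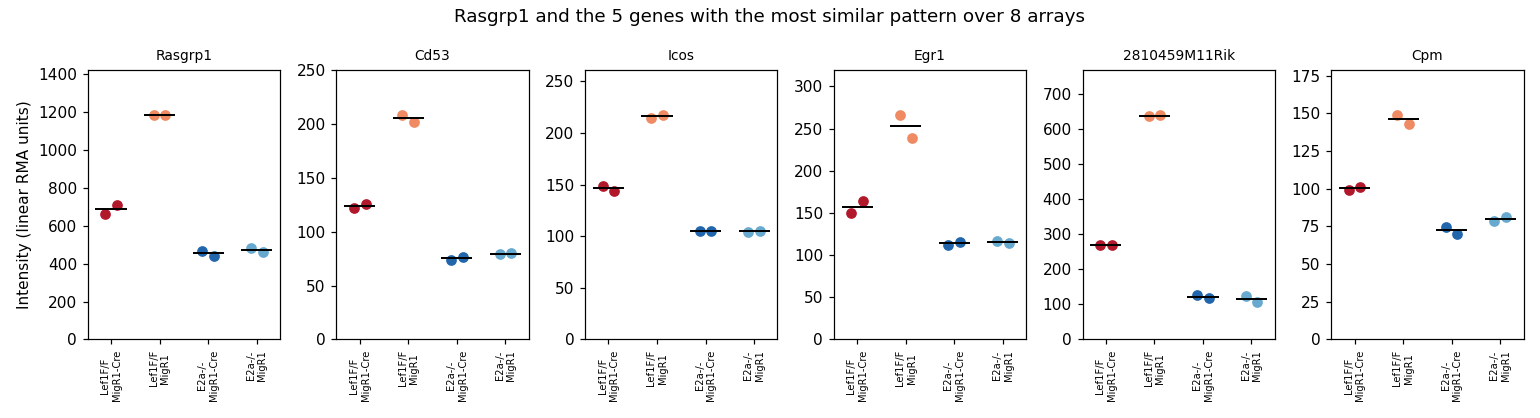
Intensity in linear RMA units (y axis) of Rasgrp1 and the 5 genes whose pattern was most like it, by group (x axis), with a point for each array and a bar for the mean of 2 arrays. In all 6 panels the Lef1F/F MigR1 arrays are highest, the Lef1F/F MigR1-Cre arrays come next and the 4 E2a-/- arrays are lowest.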

How the data were processed

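RNA of 4 groups, 2 arrays each, was hybridised to Affymetrix mouse 430 arrays after it had been extracted by Trizol and labelled by 3' in vitro transcription. The series text and the methods name different versions of this array. The authors normalized the scans with RMA in RMAExpress, and the deposited intensity values are on a linear scale. RMA makes the arrays' distributions alike, so a change in total RNA would not be seen, and it compresses differences between low intensities. The number of arrays limits the precision.

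Sample titles, which had the same vectors as the source names, gave the groups. A retrovirus field of the labels names the other vector for 2 groups (Lef1F/F MigR1 and E2a-/- MigR1-Cre) and was set aside. Arrays were numbered in record order. The authors' comparison in dChip was not repeated.

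Intensities were log2-transformed without an offset, and group means over all 8 arrays were fitted with limma 3.58.1 in R 4.3.3 (lmFit, contrasts.fit and eBayes, 4 residual and 3.99 prior degrees of freedom). P-values are two-sided and Benjamini-Hochberg adjusted over 45037 probe sets within each of 4 comparisons, with a threshold of 0.05, and the errors of log2 differences are moderated standard errors. The fit was tested on simulated arrays drawn independently of each other, which leaves out the likeness of same-numbered arrays. For MigR1-Cre in the Lef1F/F line it recovered 10.6% of 1.25-fold, 58.2% of 1.5-fold and 85.8% of 2-fold changes. Of the probe sets, 34945 had 1 gene symbol in the platform annotation, 932 had several and 9160 had none, and genes were named from the first kind. All 23 member probe sets matched their symbol in RefSeq through the gene identifier. Promoter windows came from RefSeq (GRCm38.p6). No protein sequence was used.

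All member probe sets are given. From each pathway list, up to 4 genes that passed with the smallest p are named. For MigR1-Cre in the Lef1F/F line, where none passed, those with an unadjusted p under 0.05 are given as values. The members and lists were chosen with earlier results of these data known. Alternatives were a filter on dim probe sets, trend and robust moderation, only the arrays compared, repeated quantile normalization, an offset of 50, array weights, leaving out probe sets of several transcripts, the mean of a gene's probe sets, a threshold of 0.01, leaving out each array, a replicate block, and for the lines other vectors.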

Additional observations from a re-analysis of the deposited data

How the results depend on the processing

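The count of members that passed for MigR1-Cre in the Lef1F/F line, 1, was 0 in a fit of the 4 arrays compared (Rasgrp1 -0.79, adjusted p = 0.27) and 0 with the mean of the probe sets of a gene (-0.374, adjusted p = 0.08), and it stayed at 1 in each fit without 1 array. Over its alternatives the adjusted p of Rasgrp1 1434295_at ranged between 2.99e-05 and 0.27 in this comparison and between 3.66e-09 and 0.000729 between the lines. The count for the E2a-/- line was 0 under every alternative run. Between the lines the count, 6, was 3 at an adjusted p of 0.01 and 9 over both vectors, and ranged between 1 and 6 when 1 array was left out, the lowest without E2a-/- MigR1 array 1. Araf, lower between the lines, was higher by 0.098 with the mean of its probe sets.

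The array numbers come from record order, and the labels do not say whether same-numbered arrays share a culture or infection. Deviations of same-numbered arrays correlated at 0.696 in the Lef1F/F line and -0.029 in the E2a-/- line. With the number as a replicate block within each line, 3 members passed for MigR1-Cre in the Lef1F/F line (Rasgrp1 1434295_at, and Rasgrp2 1438932_at and 1438933_x_at with adjusted p = 0.0122 and 0.0162). With the block 2 passed for the difference between the effects (Rasgrp1, adjusted p = 0.00269, and Rasgrp2 1438932_at, 0.047) and 10 passed between the lines, where the block lies inside a line and takes out spread between its arrays.

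Over all probe sets the calls for MigR1-Cre in the Lef1F/F line numbered 75, against 433 with the block, 46 with array weights, 27 at 0.01, 0 with the arrays compared alone and 20 to 33 without 1 array. For the E2a-/- line they numbered 0, and 1 with the block or with the arrays compared alone. For the difference between the effects they numbered 9, against 117 with the block, 5 with the filter, 4 without probe sets of several transcripts, 0 at 0.01 and 0 to 7 without 1 array. Between the lines they numbered 4829, against 9807 with the block, 2583 at 0.01, 9219 over both vectors, 2980 of 18193 genes with the mean of a gene's probe sets and 2267 to 5396 without 1 array. The cause of these shifts was not tested. With 2 arrays a group, a probe set that did not pass is not shown to be unchanged.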

Other observations

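Some member probe sets followed the number of the Lef1F/F array more than its vector. Rasa1 1426478_at read 152.1 units in Lef1F/F MigR1-Cre array 1 and 273.2 units in array 2, against 164.0 units in Lef1F/F MigR1 array 1 and 260.3 units in array 2. Rasgrp1 1450143_at read 65.2 and 91.3 units in Lef1F/F MigR1-Cre arrays 1 and 2, against 72.3 and 124.5 units in Lef1F/F MigR1 arrays 1 and 2. Sos2 1452281_at read 439.0 and 518.5 units in Lef1F/F MigR1-Cre arrays 1 and 2, against 424.2 and 484.6 units in Lef1F/F MigR1 arrays 1 and 2. The T lineage gene Thy1 ran the other way, with 5323.4 and 3728.6 units in Lef1F/F MigR1-Cre arrays 1 and 2, against 5345.6 and 3757.8 units in Lef1F/F MigR1 arrays 1 and 2. Among E2a-/- arrays Rasa1 1426478_at read 123.5 and 131.5 units with MigR1-Cre and 137.8 and 147.6 units with MigR1. These probe sets were chosen after their values were seen.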
